A study of Rattus norvegicus with 6 samples.

Results

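A set of 10 genes of resident and scavenger macrophages was followed in rat kidney. They were Csf1r, Csf1, Mrc1, Cd163, Msr1, Mertk, Adgre1, Aif1, Lyz2 and Laptm5, chosen by symbol among the 31368 genes of the count table. All 10 had a row, no symbol was repeated, and all 10 passed the filter on low counts, Cd163 only through the CKD libraries. RNA was sequenced from renal tissue of wild-type (WT) male Sprague-Dawley rats. The rats were 8 weeks of age per the design text, and the chronic kidney disease (CKD) of one group was produced by a procedure that the sources used here do not name. The control group, Sham, and the CKD group each had 3 libraries, and the single comparison asks which genes differ between them. No further genotype, agent or time is given for either group, nor whether each library came from a separate animal, and p-values therefore measure only how these libraries spread, which may be technical.

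Macrophages live in the spaces between the renal tubules, where they clear debris and dying cells. Their survival and growth depend on the receptor CSF1R, which binds the cytokines CSF1 and IL-34. CSF1R is carried mostly by cells of the monocyte and macrophage lineage, whereas CSF1 is also made by tubular epithelium, endothelium and fibroblasts. Scavenger receptors such as CD163 and the mannose receptor take up haemoglobin, glycoproteins and modified lipids, and MERTK binds ligands that coat dying cells. In bulk tissue, more cells of a type and more RNA per cell cannot be told apart, and the levels below are those of the whole kidney sample.

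Libraries held 15918035 to 17503644 counts. One library stood apart: mitochondrial genes took 37.9% of the counts of Sham 2, against 14.4% and 15.3% in the other Sham libraries and 8.83% to 10.8% in CKD. Markers of kidney epithelium (Lrp2, Slc34a1, Slc12a1, Umod, Slc12a3, Aqp2 and Nphs1) were all detected, with a summed level of 9400 to 14300 CPM in Sham and 7440 to 10300 CPM in CKD. The sum hides a wide spread in Sham. Slc12a3 stood at 95.1, 1890 and 755 CPM in Sham 1, 2 and 3, and Lrp2 at 3340, 705 and 4150 CPM. Aqp2 was lower in CKD without overlap (259 to 1060 CPM in Sham, 130 to 205 CPM in CKD), and the other markers overlapped. CPM are counts scaled to a common library size by TMM factors, a scaling that allows for differences in RNA composition. At an adjusted p of 0.05 in the quasi-likelihood test of edgeR, 587 of 15371 genes passed (3.82%), 411 of them higher and 176 lower in CKD.

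RefSeq start-site sequence (rat build GRCr8) was found for 7 of the 10 genes. It is shown for the 2 genes that passed the test, Mrc1 and Cd163, and for Laptm5, which did not. The letters GAGGAA, the core that the myeloid factor PU.1 (gene Spi1) can bind, were searched on both strands of the 250 bases before each start site, and a match is printed in capitals, as TTCCTC where it lies on the opposite strand. The sequences run 5′ to 3′ and end at the base before the annotated gene. Mrc1 is at chr17:82157475-82157724 (plus strand), Cd163 at chr4:158770524-158770750 (plus strand) and Laptm5 at chr5:148371630-148371879 (plus strand).
Mrc1: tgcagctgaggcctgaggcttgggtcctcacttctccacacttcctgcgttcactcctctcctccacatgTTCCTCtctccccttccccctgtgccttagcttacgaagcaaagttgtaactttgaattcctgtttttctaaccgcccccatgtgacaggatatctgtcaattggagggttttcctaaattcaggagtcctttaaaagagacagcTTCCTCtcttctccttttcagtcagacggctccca
Cd163: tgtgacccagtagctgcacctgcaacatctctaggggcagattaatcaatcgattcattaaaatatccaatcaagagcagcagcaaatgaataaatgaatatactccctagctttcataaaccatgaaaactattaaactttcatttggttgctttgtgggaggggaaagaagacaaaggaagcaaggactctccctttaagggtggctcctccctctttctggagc
Laptm5: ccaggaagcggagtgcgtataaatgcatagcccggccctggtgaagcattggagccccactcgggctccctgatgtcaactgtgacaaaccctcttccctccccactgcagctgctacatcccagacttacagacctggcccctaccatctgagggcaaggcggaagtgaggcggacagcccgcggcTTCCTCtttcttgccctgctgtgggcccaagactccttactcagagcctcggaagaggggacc
The Mrc1 window held 2 matches, whose first bases lay 180 and 35 bases before the gene. Laptm5 held 1, at 63 bases, and Cd163 held 0. Of the 7 windows, 5 held at least 1 match (Csf1r, Mrc1, Adgre1, Lyz2 and Laptm5), as did 23.3% of 33469 windows of the same length in the RefSeq table. At least 2 matches were found in the windows of Csf1r and Mrc1 and in 3.39% of all windows. The match of Lyz2 and the nearer match of Csf1r lay inside the annotated gene, and the farther match of Csf1r ran across the start of the gene. The start site of their windows is downstream of the gene's outermost start. A match describes the letters and is not a measured binding site.

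Mrc1 and Cd163, both scavenger receptors, rose in CKD, and they were the 2 of the 10 genes that passed the threshold (against 2.67% of all genes called higher). Cd163 passed the filter on low counts only through the CKD libraries, where it is high. Its call is therefore no support for a rise of the set. None of the 10 genes was called lower by edgeR, by DESeq2 or by limma-voom, or at an unadjusted p under 0.05. The log2 fold change was positive in 9 of the 10 genes and in 49.5% of all genes tested. Its median was 1.80 over the 10 genes and -0.01 over all genes. The CKD libraries all lay above the Sham libraries in 7 of the 10 genes, and in 18.8% of all genes tested; in either direction, groups without overlap made up 31.2% of all genes. Both calls were lost without Sham 2, Sham 3, CKD 1 or CKD 2, with edgeR adjusted p from 0.0552 to 0.152 in these fits, while both fold changes stayed positive.

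**Figure D1:**
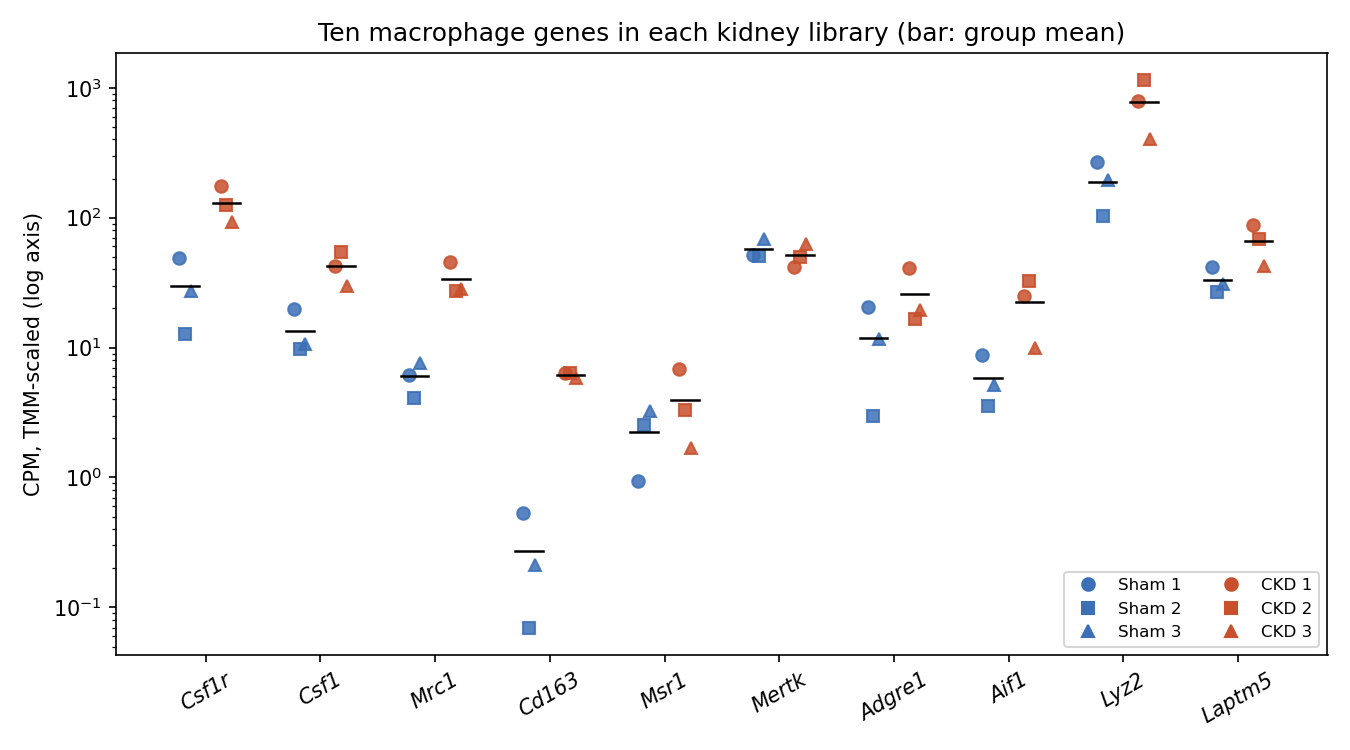
Level of each of the 10 genes in each library, in TMM-scaled CPM on a log axis; blue points are Sham, red points CKD, shapes give the library number and bars the group means. Cd163 lies between 5.84 and 6.36 CPM in CKD and at or below 0.533 in Sham, whereas the groups overlap for Mertk, Msr1 and Adgre1.

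Mrc1 encodes the mannose receptor CD206, an endocytic lectin. Its level was 6.20, 4.12 and 7.67 CPM in Sham 1, 2 and 3 and 45.9, 27.2 and 28 CPM in CKD 1, 2 and 3. The lowest CKD library was 3.54 times the highest Sham library. The mean rose from 6.0 ± 1.78 to 33.7 ± 10.6 CPM (SD, n = 3 per group), a log2 fold change of 2.49 ± 0.34 (SE; adjusted p = 0.0285 in edgeR). It lay between 2.20 and 2.64 when each library was left out in turn. In the coordinates of the deposited table, whose build is uncertain, Mrc1 lies on chromosome 17 from 77249187 to 77330857.

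Cd163 encodes the receptor that takes up haemoglobin bound to haptoglobin. It was almost undetected in Sham, with 8, 1 and 3 counts in Sham 1, 2 and 3, and had 131, 128 and 114 counts in CKD 1, 2 and 3. The CKD libraries were close together, with the highest 1.09 times the lowest, the narrowest CKD spread among the 10 genes. Over summed and scaled counts, 373 in CKD against 12 in Sham, the ratio was 22.4 (95% exact binomial interval 12.7 to 43.8, counting error only). The fitted log2 fold change was 4.46 ± 0.63 (SE; adjusted p = 0.0302 in edgeR), and it ranged from 3.98 without Sham 2 to 5.35 without Sham 1. By size of fold change Cd163, tested only because of its CKD counts, ranked 55th from the top of the 15371 genes tested, and Mrc1 380th. Cd163 lies on chromosome 4 from 157085093 to 157117878 in the table's coordinates.

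Msr1, the class A scavenger receptor for modified lipoproteins, did not follow them. Its level was 0.934, 2.52 and 3.24 CPM in Sham 1, 2 and 3 and 6.80, 3.33 and 1.69 CPM in CKD 1, 2 and 3. The groups overlapped, with CKD 3 below both Sham 2 and Sham 3. Its log2 fold change of 0.82 ± 0.65 (adjusted p = 0.48 in edgeR) was 0.18 without CKD 1 and 0.40 without Sham 1. Msr1 was also the single one of the 10 genes whose lowest Sham library was Sham 1 and not Sham 2.

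Csf1r, the receptor of the CSF1 axis, stood at 49.2, 12.8 and 27.5 CPM in Sham 1, 2 and 3 and at 174, 125 and 92.2 CPM in CKD 1, 2 and 3. The groups did not overlap, and Sham 1 was 3.85 times Sham 2. The mean was 29.8 ± 18.3 CPM in Sham and 130 ± 40.9 CPM in CKD, a log2 fold change of 2.12 ± 0.49 that missed the threshold (adjusted p = 0.0557 in edgeR). It passed without Sham 1 (2.65, adjusted p = 0.0254 in edgeR) and was 1.71 without Sham 2. Csf1r lies on chromosome 18 from 54546659 to 54590415 in the table's coordinates.

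Its ligand gene Csf1 stood at 19.9, 9.71 and 10.6 CPM in Sham 1, 2 and 3 and at 42.1, 54.9 and 29.8 CPM in CKD 1, 2 and 3. All CKD libraries were above all Sham libraries, here with CKD 2 as the highest. Csf1 had a log2 fold change, just short of the threshold, of 1.66 ± 0.36 (adjusted p = 0.0514 in edgeR), and 2.01 without Sham 1, where it passed (adjusted p = 0.0216 in edgeR). The second ligand gene, Il34, named here for its role after its values were seen, stood at 49.9, 10.1 and 27 CPM in Sham and 92.3, 85.5 and 48.9 CPM in CKD. CKD 3 was just below Sham 1 (log2 fold change 1.38 ± 0.54, adjusted p = 0.174 in edgeR).

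Mertk, the receptor tyrosine kinase for ligands on dying cells, was the 1 gene of the 10 with a negative fold change. Its level was 51.5, 50.4 and 69.0 CPM in Sham 1, 2 and 3 and 41.6, 49.8 and 62.7 CPM in CKD 1, 2 and 3. The 2 groups covered nearly the same range, and the highest CKD library was 1.51 times the lowest. The log2 fold change was -0.15 ± 0.23 (adjusted p = 0.743 in edgeR). Its sign turned to 0.26 when libraries were scaled by their totals alone, a scaling that moved the median of all genes from -0.01 to 0.41.

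Adgre1 encodes F4/80, a surface adhesion receptor used to mark tissue macrophages. It stood at 20.7, 3.0 and 11.6 CPM in Sham 1, 2 and 3 and at 41.0, 16.7 and 19.3 CPM in CKD 1, 2 and 3. CKD 2 and CKD 3 lay below Sham 1, and Sham 1 was 6.90 times Sham 2. The log2 fold change of 1.12 ± 0.65 (adjusted p = 0.338 in edgeR) was 0.61 without CKD 1, 0.62 without Sham 2 and 1.77 without Sham 1. Aif1 encodes IBA1, a calcium-binding protein of the macrophage cytoskeleton. It stood at 8.80, 3.56 and 5.14 CPM in Sham and 25.1, 32.3 and 9.89 CPM in CKD. The groups did not overlap, but CKD 3 was just 1.12 times Sham 1. For Aif1 the log2 fold change was 1.94 ± 0.51 (adjusted p = 0.0746 in edgeR), and Aif1 passed without Sham 1 (2.32, adjusted p = 0.0445 in edgeR) and without CKD 3 (2.30, adjusted p = 0.047 in edgeR).

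Lyz2, the lysozyme of macrophages and other myeloid cells, was the most abundant of the 10. It stood at 266, 103 and 196 CPM in Sham 1, 2 and 3 and at 784, 1140 and 400 CPM in CKD 1, 2 and 3. CKD 3, the lowest CKD library, was 1.5 times the highest Sham library. The mean was 188 ± 81.6 CPM in Sham and 774 ± 369 CPM in CKD (log2 fold change 2.04 ± 0.50, adjusted p = 0.0659 in edgeR), and the gene passed without Sham 1 (2.33, adjusted p = 0.0465 in edgeR). Reads of lysozyme copies that resemble each other may be shared, so its count is uncertain. Laptm5, a lysosomal membrane protein of blood-derived cells, stood at 41.9, 26.8 and 30.8 CPM in Sham and 87.4, 69.1 and 42.5 CPM in CKD. CKD 3 and Sham 1 nearly touched, at a ratio of 1.02. The log2 fold change was 1.0 ± 0.31 (adjusted p = 0.105 in edgeR).

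**Figure D2:**
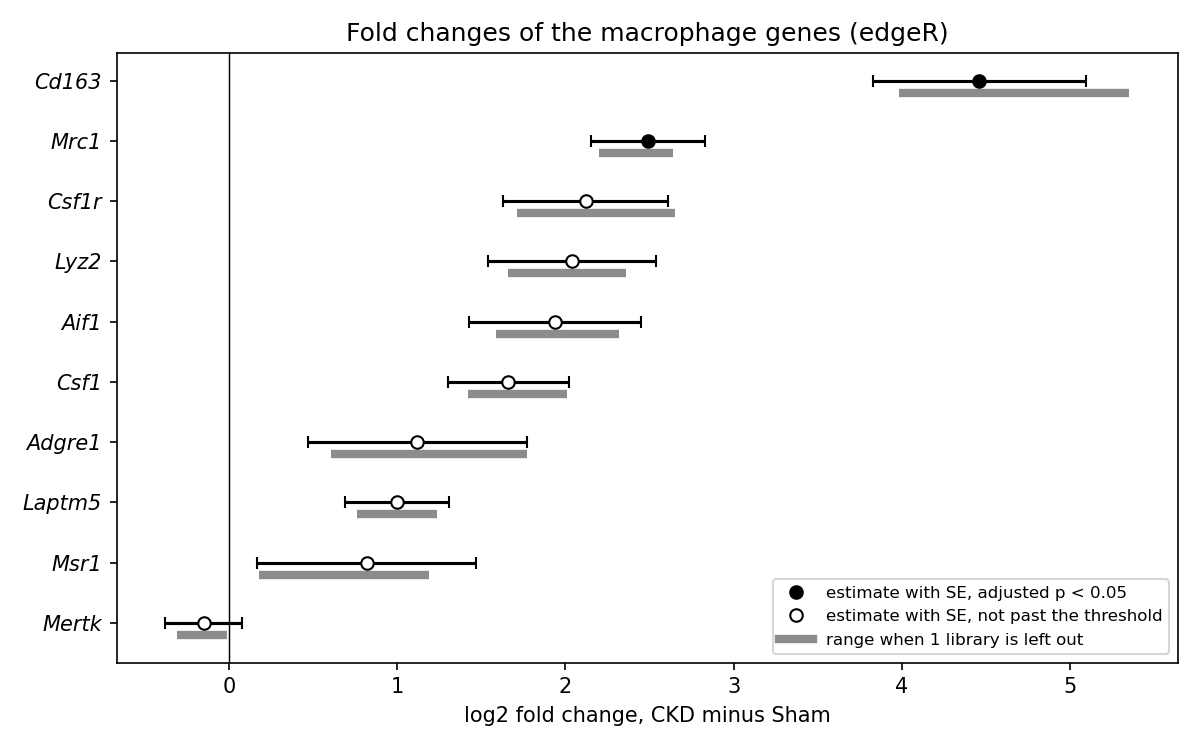
Log2 fold change of each gene, CKD minus Sham, with its standard error (points; filled where the edgeR adjusted p is under 0.05) and the range of the estimate when each of the 6 libraries is left out in turn (grey bars). Cd163 at 4.46 and Mrc1 at 2.49 are the filled points, and Mertk at -0.15 is the only estimate below 0.

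The libraries were ordered alike across much of the set. Sham 2 was the lowest Sham library in 9 of the 10 genes, and Sham 1 the highest in 7. In CKD, CKD 3 was the lowest in 7 genes, whereas the highest was CKD 1 in 5 genes (Csf1r, Mrc1, Msr1, Adgre1 and Laptm5) and CKD 2 in 4 (Csf1, Cd163, Aif1 and Lyz2). Mertk had its own order, with CKD 3 the highest and CKD 1 the lowest. Over the 6 libraries, which share the group difference, Pearson's correlation of log2 CPM with Csf1r was 0.96 for Cd163, 0.95 for Csf1 and Lyz2, 0.94 for Mrc1, 0.93 for Aif1 and Laptm5, 0.89 for Adgre1, 0.34 for Msr1 and -0.39 for Mertk.

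Levels of different genes were set side by side as counts divided by the deposited gene length and scaled to one common sum per library. In Sham the order ran from Lyz2 (169 ± 87.0) through Mertk (20.1 ± 6.61), Laptm5 (18.8 ± 6.26), Csf1r (11.3 ± 7.53), Adgre1 (6.31 ± 4.91), Csf1 (4.98 ± 2.44), Aif1 (4.98 ± 2.64), Mrc1 (1.97 ± 0.858) and Msr1 (1.91 ± 1.16) to Cd163 (0.0999 ± 0.0892). Neighbours that changed places in at least 1 Sham library were Mertk and Laptm5, Adgre1 and Csf1, Csf1 and Aif1, and Mrc1 and Msr1. In CKD, Csf1r (77.0 ± 27.9) stood next to Lyz2 (1080 ± 522), followed by Laptm5 (60.3 ± 23.1), and these 3 kept that order in every CKD library. Below them came Aif1 (30.2 ± 15.7), Mertk (28.5 ± 4.59), Csf1 (24.9 ± 7.69), Adgre1 (21.2 ± 12) and Mrc1 (17.4 ± 6.32), each of which changed places with a neighbour in at least 1 library. Msr1 (5.54 ± 3.91) and Cd163 (3.47 ± 0.306) were the lowest, so that Cd163 stayed the least or next to least abundant of the 10 per length after its rise. These per-length values are scaled by library totals, so they serve for the order of genes within a group and not for the size of a change between groups.

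A ratio within a library needs no scaling between libraries, and each gene was therefore set against Csf1r. Per 100 Csf1r counts there were 1.08, 0.546 and 0.767 Cd163 counts in Sham 1, 2 and 3 and 3.64, 5.11 and 6.33 in CKD 1, 2 and 3. Mertk gave 105, 394 and 251 counts per 100 in Sham and 24.0, 40.0 and 68.0 in CKD. Both genes separated the groups, Cd163 upward and Mertk downward. Csf1r itself was higher in CKD, so a gene at an equal level in both groups has a lower ratio in CKD: over the other 15370 genes tested the median difference of the log2 ratio was -2.23, and 78.4% had ratios lower in every CKD library than in any Sham library. Ratios higher in every CKD library were found in 0.761% of these genes. Cd163 was among the genes tested only through its CKD counts, so this share is no support for its rise against Csf1r. Its ratios in Sham 1, 2 and 3 rest on 8, 1 and 3 counts. The log2 ratio to Csf1r differed, CKD minus Sham, by 2.38 for Cd163, -2.43 for Mertk, -1.32 for Laptm5 and -0.89 for Adgre1, and in these 4 the log2 ratios of the groups did not overlap (exact permutation test, two-sided, p = 0.1 each, the smallest p that 3 against 3 libraries allow; 0.225 after Benjamini-Hochberg adjustment over the 9 ratios). Csf1 (-0.59), Lyz2 (-0.26), Aif1 (-0.41), Mrc1 (0.20) and Msr1 (-1.52) overlapped, with exact permutation p from 0.3 to 0.9. For Adgre1 the separation rested on the 0.5 added to each count: without it CKD 1 (23.6 per 100) lay above Sham 2 (23.5), and the exact permutation p was 0.2. The Mrc1 ratio turned to -0.21 without Sham 1. The lower ratios of Mertk, Laptm5 and Adgre1 are of the kind most genes had, and are no result about these 3 genes. This design cannot place any of the 9 ratios past a threshold of 0.05.

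**Figure D3:**
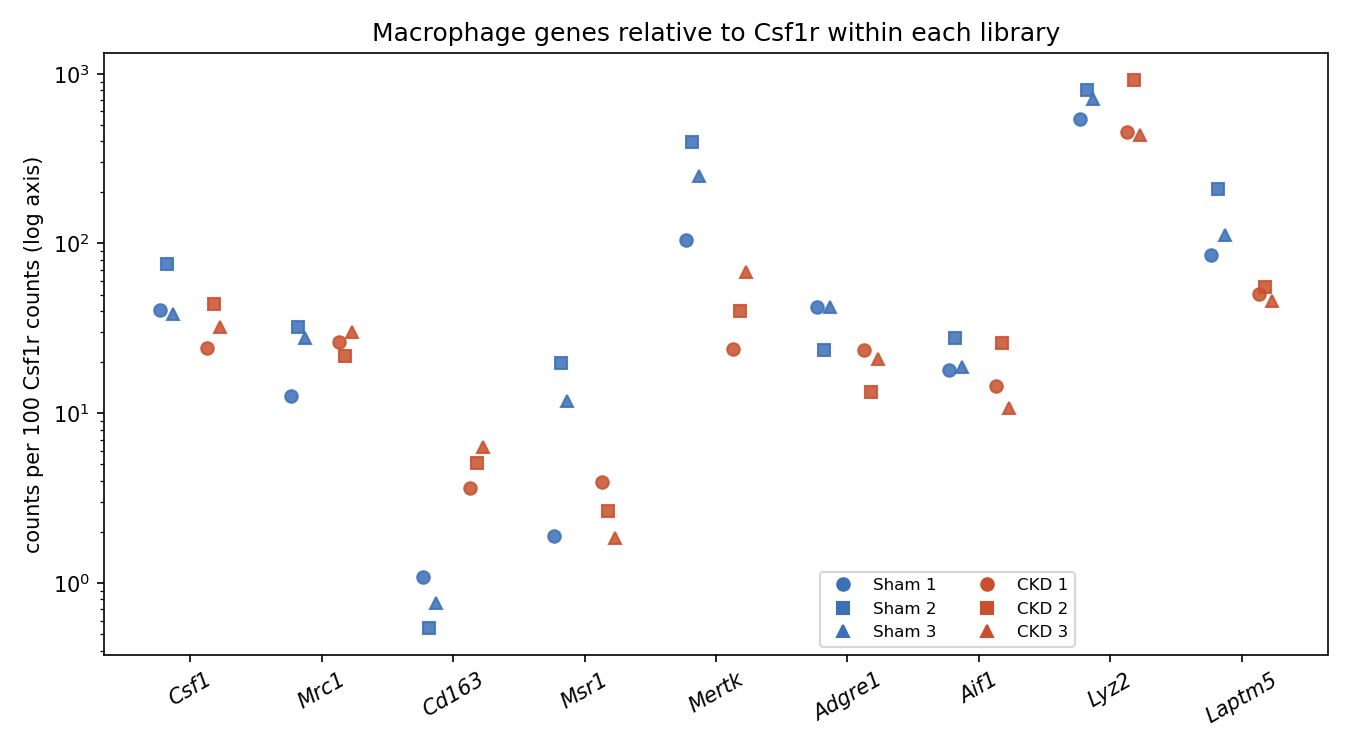
Counts of each gene per 100 Csf1r counts in the same library, on a log axis; blue points are Sham, red points CKD, and shapes give the library number. Cd163 runs from 0.546 to 1.08 in Sham, on 8, 1 and 3 counts in Sham 1, 2 and 3, and from 3.64 to 6.33 in CKD. Mertk lies lower in CKD, as did 78.4% of all genes against Csf1r, and Mrc1, Aif1 and Lyz2 overlap.

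In 6 lists of other genes of the pathway, with 75 tested genes, 15 rose and 0 fell by edgeR; at an unadjusted p under 0.05, 2 were lower (Stab2 and Adgrb1), and DESeq2 called 2 lower and limma-voom 0. Over all genes, 2.67% were called higher and 1.15% lower, and 3655 of 15371 had an unadjusted p under 0.05 in either direction (edgeR). Of the 15, Scara3 and Siglec1 passed the filter on low counts only through the CKD libraries, where they are high. Their calls are therefore no support for a rise of the lists. All 15 calls were lost without Sham 2, Sham 3, CKD 1 or CKD 2, while all 15 fold changes stayed positive in these fits. With limma-voom 4 of the 15 were called (Maf, Axl, Cx3cr1 and Lcp1) and with DESeq2 all 15.

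Among 15 tested CSF1R partners and myeloid transcription factors, 3 rose and 0 fell, with 13 positive fold changes and a median of 1.38. Maf, a transcription factor of resident macrophages, stood at 28.2, 17.4 and 46.6 CPM in Sham 1, 2 and 3 and at 194, 175 and 180 CPM in CKD 1, 2 and 3. The CKD libraries were all several times above Sham (log2 fold change 2.57 ± 0.36, adjusted p = 0.0302 in edgeR). Ikzf1, the haematopoietic factor Ikaros, rose by 2.31 ± 0.36 on the log2 scale and Inpp5d, the phosphatase SHIP1 that restrains CSF1R signalling, by 1.39 ± 0.29 (adjusted p = 0.0323 and 0.047 in edgeR). Spi1, which encodes PU.1 and is named here for its role after its values were seen, stood at 4.0, 4.40 and 2.60 CPM in Sham and 19.4, 20 and 7.17 CPM in CKD, without overlap and just short of the threshold (adjusted p = 0.0514 in edgeR).

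Of 13 other scavenger receptors tested, 1 rose and 0 fell, with 11 positive fold changes and a median of 1.23. That gene was Scara3, with 17, 16 and 5 counts in Sham 1, 2 and 3 and 174, 129 and 65 in CKD 1, 2 and 3 (log2 fold change 2.79 ± 0.59, adjusted p = 0.0484 in edgeR). Scara3 passed the filter on low counts only through the CKD libraries, where it is high, so this count of 1 is no support for a rise of the list. Cd68, the lysosomal scavenger receptor of macrophages, stood at 5.20, 3.91 and 5.91 CPM in Sham and 23.0, 22.0 and 8.50 CPM in CKD. Stab1, a scavenger receptor of macrophages and sinusoidal endothelium, stood at 9.40, 3.70 and 6.05 CPM in Sham and 40.7, 16.2 and 20.8 CPM in CKD. Neither group pair overlapped, and neither gene passed (adjusted p = 0.0562 and 0.0567 in edgeR). Marco was listed at 0 in every library, and Cd36 and Cd5l were not analysed here.

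Of 12 engulfment genes tested, 2 rose and 0 fell, with 9 positive fold changes and a median of 0.58. Axl is a receptor of the same kinase family as Mertk. It stood at 29.5, 31.4 and 27.6 CPM in Sham 1, 2 and 3 and at 183, 182 and 93.2 CPM in CKD 1, 2 and 3, a rise of 2.37 ± 0.30 on the log2 scale (adjusted p = 0.0278 in edgeR). The Sham values were nearly equal, and even CKD 3 was well above them, unlike Mertk in the same libraries. The third receptor of the family, Tyro3, named after its values were seen, had a log2 fold change of -1.01 ± 0.62 (adjusted p = 0.362 in edgeR). Dock2, which drives the cytoskeleton of leukocytes, rose by 1.93 ± 0.41, and Elmo1, its partner, had a log2 fold change of 1.18 ± 0.31 without passing (adjusted p = 0.049 and 0.0756 in edgeR).

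Of 13 genes of monocytes and recruited macrophages, 2 rose and 0 fell, and all 13 fold changes were positive, with a median of 1.27. Cx3cr1, the fractalkine receptor of monocytes and of resident kidney macrophages, stood at 1.73, 1.82 and 3.31 CPM in Sham 1, 2 and 3 and at 42.0, 36.3 and 22.0 CPM in CKD 1, 2 and 3. The groups were far apart (log2 fold change 3.87 ± 0.39, adjusted p = 0.0278 in edgeR). Itgam, the integrin chain CD11b, rose by 2.36 ± 0.43 on the log2 scale (adjusted p = 0.0394 in edgeR), and Fcgr3a, an Fc receptor, had a log2 fold change of 2.67 ± 0.61 (adjusted p = 0.0548 in edgeR).

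Of 10 tested genes of resident tissue macrophages, 3 rose and 0 fell, with 7 positive fold changes and a median of 1.43. Siglec1, the sialic acid receptor sialoadhesin, had 6, 0 and 9 counts in Sham 1, 2 and 3 and 375, 310 and 122 in CKD 1, 2 and 3 (adjusted p = 0.0352 in edgeR). As with Cd163, it passed the filter only through the CKD libraries. Folr2, a folate receptor of resident macrophages, rose by 2.61 ± 0.46 and C1qa, a chain of complement C1q, by 2.59 ± 0.53 on the log2 scale (adjusted p = 0.0379 and 0.0451 in edgeR). Vsig4 and Hpgds were too low to test. Lyve1, which also marks lymphatic endothelium, stood at 11.7 to 34.7 CPM in Sham and 11.3 to 14.5 CPM in CKD.

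Of 12 pan-myeloid and lysosomal genes, 4 rose and 0 fell, and all 12 fold changes were positive, with a median of 1.06. The 4 were Coro1a, Ptprc, Lcp1 and Cybb. Coro1a, an actin-binding protein of leukocytes, rose by 2.57 ± 0.41, Ptprc, the pan-leukocyte phosphatase CD45, by 1.79 ± 0.34 and Lcp1, the leukocyte actin bundler plastin, by 2.62 ± 0.51 on the log2 scale (adjusted p = 0.0335, 0.0405 and 0.0415 in edgeR). Other lysosomal members, named after their values were seen, did not pass: the log2 fold change was 1.87 for Ctss and 0.83 for Grn, without overlap between the groups, and 0.55 for Ctsd, 0.55 for Lgmn, 0.12 for Lamp1 and 0.11 for Ctsb, with overlap.

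**Figure D4:**
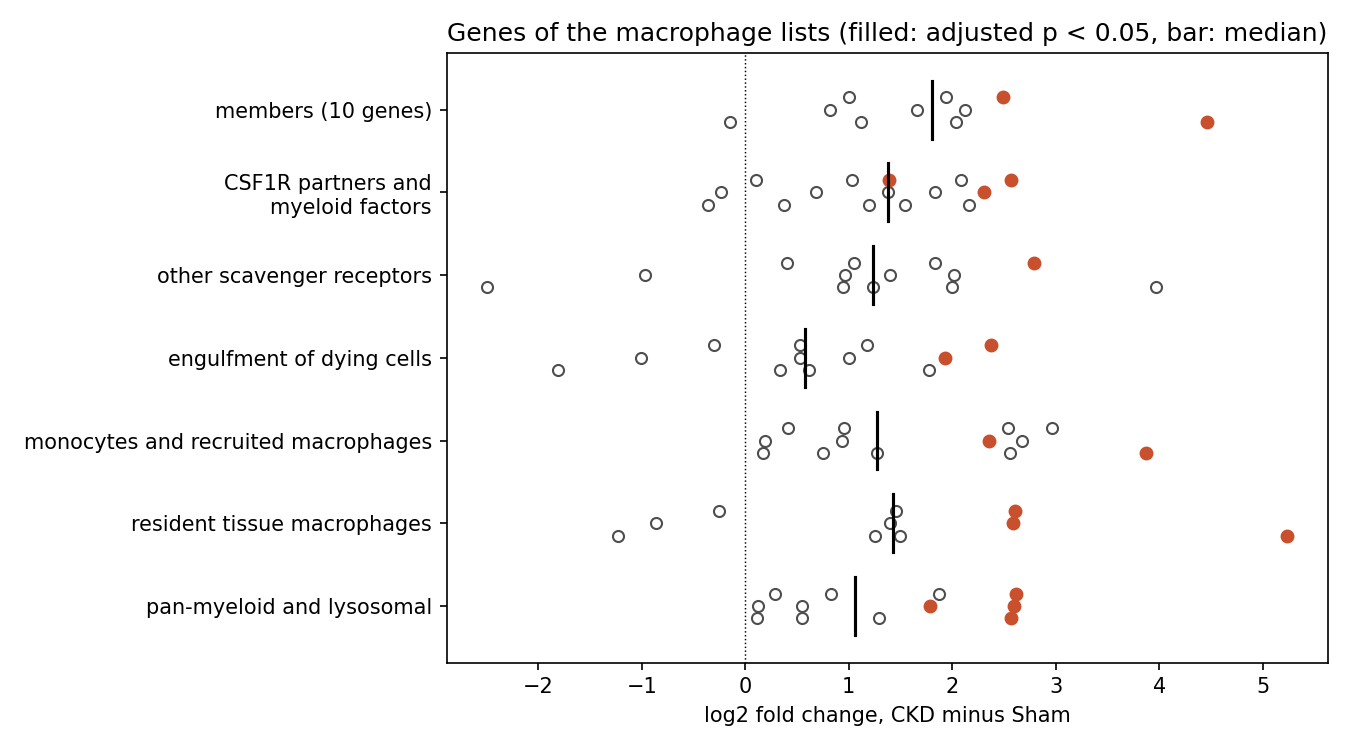
Log2 fold change, CKD minus Sham, of the 10 genes and of each tested gene in the 6 lists (1 point per gene, filled where the edgeR adjusted p is under 0.05; vertical bars are list medians and the dotted line is 0). The median of the 10 genes is 1.80 and those of the lists run from 0.58 to 1.43. The only filled point among the other scavenger receptors is Scara3. Cd163, Scara3 and Siglec1 are filled but passed the filter on low counts only through the CKD libraries.

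Summed levels of T cell, fibroblast and B cell markers were also higher in every CKD library than in any Sham library. Those of dendritic cell, neutrophil, endothelial and mast cell markers overlapped between the groups. All 6 T cell markers were tested, 2 rose (Lck, and Cd3g, which passed the filter only through the CKD libraries) and the summed level was 6.36 to 9.47 CPM in Sham and 21.8 to 47.9 CPM in CKD. All 5 fibroblast markers had positive fold changes and 1 rose (Col1a1), with summed levels of 64.0 to 394 CPM in Sham and 644 to 998 CPM in CKD. Of 7 dendritic cell markers 1 rose (Xcr1, which passed the filter only through the CKD libraries), and summed levels were 8.27 to 20.8 CPM in Sham and 20 to 38.6 CPM in CKD. The 5 B cell markers summed to 1.07 to 3.49 CPM in Sham and 4.34 to 5.58 CPM in CKD, and 0 of 3 tested passed in edgeR. At an unadjusted p under 0.05 there was 1, Cd79b, higher in CKD. Cd79b and Cd79a passed the filter on low counts only through the CKD libraries, so their tests are no support for a rise of these markers. Of 8 neutrophil markers 2 were tested and 0 passed in edgeR (1, S100a9, lower at an unadjusted p under 0.05). The summed level, which overlapped between groups, was 1.80 to 23.8 CPM in Sham and 0.666 to 2.94 CPM in CKD. S100a9 was lower in every CKD library (at most 0.482 CPM) than in any Sham library (at least 1.13 CPM). Its log2 fold change was -4.04 ± 0.90 (adjusted p = 0.0537 in edgeR). The neutrophil granule genes Mpo and Elane were at 0 in every Sham library and did not exceed 0.0482 CPM in CKD. Other granule genes were present in Sham. Mmp8 had 6, 62 and 52 counts in Sham 1, 2 and 3 and 4, 0 and 1 in CKD 1, 2 and 3. Camp had 0, 6 and 4 counts in Sham and 0 in every CKD library, and Ngp 0, 12 and 6 in Sham and 2, 0 and 1 in CKD. These genes were too low to test. The 5 endothelial markers summed to 274 to 339 CPM in Sham and 196 to 283 CPM in CKD, with 0 passing in edgeR (1 higher and 2 lower at an unadjusted p under 0.05). At that unadjusted p, 13.5% of all genes tested were higher in CKD, and 3655 of 15371 passed in either direction. So few markers at that level are no result about a cell type. The 5 mast cell markers summed to 15.9 to 43.2 CPM in Sham and 39.2 to 46.9 CPM in CKD, mostly Kit, and the other 4 were at 0 in every Sham library. In CKD 1, 2 and 3, Mcpt1 had 44, 2 and 2 counts and Cpa3 26, 4 and 2, most of them in CKD 1. Tpsb2 had 1, 0 and 4 counts there and Fcer1a 1, 0 and 0. These 4 were too low to test. Some of these cells share genes with the 10 followed here, such as Csf1 in fibroblasts and Laptm5 in lymphocytes, and the part of these markers in the results was not tested.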

How the data were processed

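The deposited counts per gene were raw whole numbers, with 1 column for each of 3 Sham and 3 CKD libraries of renal tissue; the gene length column, in bases, is theirs as well. Per the labels' protocols, TRIzol was used for RNA extraction and a VAHTS Universal V5 kit for the libraries. HISAT2 2.1.0, HTSeq 0.11.2 and fastp 0.20.1, with the build Rnor_6.0, are named without order or role per the submitters' processing notes. The build of the table's coordinates is uncertain, since its highest gene end on chromosome 1 is 260398790. No source used here gives the strand setting, so overlapping genes cannot be told apart. Columns of other series numbered 0.

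The deposited counts were filtered with filterByExpr (minimum count 10, minimum total 15), which left 15371 genes, scaled by TMM and fitted with edgeR's robust quasi-likelihood model holding only the group (edgeR 4.0.16, limma 3.58.1, DESeq2 1.42.0, R 4.3.3). Benjamini-Hochberg adjustment covered all genes tested. The standard error is the fold change divided by the root of F, and a prior count of 2 entered log2 CPM. Ratios to Csf1r used counts plus 0.5 and an exact permutation test. Replicates differed far beyond counting noise (chi-square over degrees of freedom from 32.9 to 356). On simulated data for this comparison (15371 genes), 2% of 100 genes given a 2-fold change were called and 45% of 100 given a 4-fold change, as were 7 unchanged genes.

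The members and the gene lists were chosen with earlier results of these data known. All 10 members are named, with the 3 tested genes of each list with the smallest p and the 5 genes most correlated with Csf1r; any other gene was named after its values were seen.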

Additional observations from a re-analysis of the deposited data

How the results depend on the processing

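With upper-quartile factors 4 of the 10 genes were called higher, with no filter 4, with DESeq2 6, with library totals alone 7 and with a replicate block 0. With each library left out in turn they numbered 0 to 6, being 6 without Sham 1, 3 without CKD 3 and 0 without each of the others. Over all genes the higher calls were 2047 with library totals alone, 1379 with DESeq2, 120 with limma-voom, 186 with limma-voom and library weights and 4 with the block, and 0 to 789 with a library left out. The lower calls were 1118 with DESeq2, 75 with limma-voom, 301 with library weights, 6 with the block and 0 to 922 with a library left out. With library totals alone 91.9% of the calls were higher, against 70.0%. In the 6 lists, 42 genes were called higher with library totals alone, 39 with DESeq2, 4 with limma-voom, 5 with library weights and 0 with the block, and 0 to 25 with a library left out; lower calls were 2 with DESeq2 and 0 to 2 with a library left out. Fits without 1 library have fewer samples; other causes of these shifts were not tested. Mertk turned to 0.26 with library totals alone, and the log2 ratio of Mrc1 to Csf1r ranged from -0.21 to 0.47 with a library left out. The other 8 ratios kept their sign. Mrc1 and Cd163 were both called under RLE factors, the CPM filter of 1 in 3 libraries, a fit that was not robust, and removal of mitochondrial or of the 20 most abundant genes; with library weights Mrc1 was not (limma-voom, adjusted p = 0.0507).

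Same-numbered Sham and CKD libraries did not deviate together (correlations of -0.21, 0 and -0.16), so the numbers were not treated as pairs. In the fit with the replicate block Mrc1 had a log2 fold change of 2.49 and Cd163 one of 4.63 (adjusted p = 0.0528 each in edgeR). Counting depth limits Cd163 and Siglec1 in Sham, where single libraries held 0 to 9 counts.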

Other observations

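Among 9537 named genes outside the lists whose average log2 CPM reached 3, the 5 whose log2 CPM followed Csf1r most closely over the 6 libraries were Naaa, Mmp2, Pdia4, Jchain and Efnb1 (Pearson's correlation 0.998 to 0.994). All 6 libraries had the same order in these genes as in Csf1r within each group, with Sham 1 above Sham 3 above Sham 2 and CKD 1 above CKD 2 above CKD 3. Naaa, a lysosomal amidase of fatty acid ethanolamides, stood at 7.67, 3.14 and 5.35 CPM in Sham 1, 2 and 3 and at 15.1, 12.2 and 10.4 CPM in CKD 1, 2 and 3. Mmp2, a gelatinase of fibroblasts, stood at 22.0, 4.54 and 10.6 CPM in Sham and 79.5, 54.8 and 33.9 CPM in CKD, and Jchain, which joins antibody chains in plasma cells, at 30.3, 5.24 and 11.9 CPM in Sham and 95.2, 84.2 and 56.5 CPM in CKD. None of the 5 passed the threshold (edgeR adjusted p from 0.0697 to 0.127). All 5 were higher in CKD at an unadjusted p under 0.05, as were 13.5% of all genes tested. The groups did not overlap in any of them, nor in 31.2% of all genes tested. Csf1r itself separated the groups, and the 5 were picked for following it in these same libraries. Their library order, lack of overlap and p-values are therefore no separate result. The points share the group difference and the libraries, so the correlation is a description.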
